A study of Mus musculus with 6 samples.

Results

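The genes described here were 45 interferon-stimulated genes other than the guanylate-binding and immunity-related GTPases, chosen by name from the 29626 genes counted in sorted CD4+CD8+ double-positive (DP) thymocytes, and every name matched 1 gene. RNA came from 3 Kansl1fl/fl CD4-Cre mice (KANSL1-deficient) and 3 Kansl1fl/fl littermates without Cre (control, labelled WT), all 8 weeks old. Both groups carried the floxed alleles, and Cre, driven by Cd4 regulatory elements that are active from the DP stage onward, was carried by the KANSL1-deficient mice alone, so the presence of Cre and the loss of Kansl1 cannot be told apart. KANSL1 is a scaffold subunit of the NSL complex, which holds the histone acetyltransferase KAT8. The labels number 1 mouse per library and mention no pooling. The cells were not stimulated before RNA extraction.

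Interferons are secreted alarm signals of viral infection. Type I interferons bind the receptor IFNAR1 and IFNAR2, whose kinases JAK1 and TYK2 start a signal that reaches ISGF3, the factor that contains STAT2 and IRF9 and binds the interferon-stimulated response element (ISRE). Interferon gamma acts through a separate receptor and the gamma-activated site (GAS). The genes so induced encode sensors of foreign RNA and DNA, proteins that block translation or degrade RNA, and regulators that sustain or end the signal, and many of them are transcribed at a low level in resting lymphocytes, thymocytes included.

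Library totals were 20603137 to 22459830 counts in the KANSL1-deficient libraries and 19361968 to 21975201 counts in the control libraries. The 10 markers of the DP stage were all read, with summed levels of 16720 to 18530 CPM in KANSL1-deficient and 14060 to 14650 CPM in control libraries (CPM, counts scaled to a common library size with TMM factors). Kansl1 itself had 145, 168 and 188 CPM in KANSL1-deficient and 213, 188 and 229.8 CPM in control libraries, a log2 fold change of -0.33 ± 0.14 (SE; KANSL1-deficient over control; adjusted p = 0.171 by the Benjamini-Hochberg method in edgeR); its reads were summed over the whole gene, so a deleted exon was not measured separately. Of all tested genes 6.76% passed the threshold of an adjusted p under 0.05, 3.85% as higher and 2.91% as lower in KANSL1-deficient cells.

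Many of these genes lie in families that arose by local duplication, and promoter sequences were examined to show which members share regulatory sequence and near-identical copies. RefSeq promoter windows of the GRCm38.p6 build, from 250 bases before to 50 bases after a gene's start, were found for 35 of the 45 genes. The ISRE core was searched on both strands as GAAA, any 2 bases and GAAA and the GAS core as TTCNNNGAA, which reads the same on both strands; overlapping matches were kept, and 1 GAS core in the Bst2 promoter shares bases with an ISRE core. The ISRE core was found in 16 of 35 members (45.7%) and in 3.99% of 27025 genes with a promoter window, and the GAS core in 8 of 35 members (22.9%) and in 9.55% of all. These matches describe letters; binding was not measured. Stretches before the start that hold an ISRE core are shown 5′ to 3′ in the direction of the gene with the cores in capitals, first for the members past the threshold that have such a stretch (chr19:34640745-34640853 plus strand, chr19:34602023-34602112 minus strand, chr12:26456523-26456612 minus strand and chr5:120777685-120777774 minus strand in GRCm38.p6). A core on the opposite strand reads TTTC, any 2 bases and TTTC.
Ifit1: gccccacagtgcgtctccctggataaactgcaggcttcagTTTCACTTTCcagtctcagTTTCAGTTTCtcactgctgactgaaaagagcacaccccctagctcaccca
Ifit1bl1: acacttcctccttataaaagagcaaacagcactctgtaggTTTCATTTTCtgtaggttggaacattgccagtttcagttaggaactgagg
Rsad2: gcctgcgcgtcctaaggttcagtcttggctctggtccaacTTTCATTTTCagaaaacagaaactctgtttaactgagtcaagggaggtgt
Oas3: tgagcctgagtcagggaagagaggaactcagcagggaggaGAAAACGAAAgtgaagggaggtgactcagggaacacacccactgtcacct
The second set shows copies within a family, Ifit3 and Ifit3b on chromosome 19 (chr19:34583333-34583456 and chr19:34607729-34607852, plus strand) and Ifi206 and Ifi213 on chromosome 1 (chr1:173491319-173491398 and chr1:173599296-173599385, minus strand).
Ifit3: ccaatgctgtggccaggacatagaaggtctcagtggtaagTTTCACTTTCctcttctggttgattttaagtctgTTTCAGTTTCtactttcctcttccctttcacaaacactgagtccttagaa
Ifit3b: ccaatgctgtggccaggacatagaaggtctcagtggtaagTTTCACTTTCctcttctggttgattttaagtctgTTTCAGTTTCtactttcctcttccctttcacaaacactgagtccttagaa
Ifi206: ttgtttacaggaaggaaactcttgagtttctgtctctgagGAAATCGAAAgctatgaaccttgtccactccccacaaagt
Ifi213: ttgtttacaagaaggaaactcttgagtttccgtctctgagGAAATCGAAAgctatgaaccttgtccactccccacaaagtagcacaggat
The windows of Ifit3 and Ifit3b were identical over 124 of 124 bases, and those of Ifi206 and Ifi213 over 78 of 80 bases aligned at the core. The windows of Ifi203 and Ifi214 were less like that of Ifi206, with 44 of 75 and 47 of 80 bases identical. If the transcripts of Ifit3 and Ifit3b, or of Ifi206 and Ifi213, are as alike as these stretches, reads can be shared between them, so their values are uncertain. The last stretch is that of Stat2 (chr10:128270248-128270325, plus strand), shown because this gene had a negative fold change although an ISRE core lies before its start.
Stat2: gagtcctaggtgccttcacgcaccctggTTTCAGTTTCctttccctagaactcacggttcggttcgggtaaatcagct

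Of the 45 genes, 8 rose in KANSL1-deficient cells, none fell, and 4 had too few counts to be tested (edgeR, adjustment over 15353 genes). At an unadjusted p under 0.05 there were 28 of 41, beside 22.6% of all tested genes, and 2 of these, Stat2 and Eif2ak2, were lower, beside 11% of all. DESeq2 gave 39 members an adjusted p and called 17 higher and 1 lower, beside 8.6% and 7.5% of all genes with one. Limma-voom called 9 higher and 0 lower, beside 4.65% and 3.26% of all. The 8 were Ifit1, Ifit1bl1, Ifit2, Oas3, Rsad2, Sp100, Dtx3l and Parp9, with log2 fold changes between 0.74 and 2.66. They make up 19.5% of the 41 tested members, beside 3.85% of all tested genes that were higher. The median log2 fold change of the 41 was 0.84, beside -0.02 over all tested genes, and 38 of 41 were positive, beside 48.2% of all tested genes. Of the 41, 36 passed the filter on low counts through their control libraries alone, among them the 8 that rose, whereas Ifit3, Oas1a, Oas2, Oasl2 and Mx1 passed only through the KANSL1-deficient libraries, so that a higher level in those was built into their inclusion. The values given for the 41 include these 5 genes. Over the 36, the 8 that rose make up 22.2%, and the median log2 fold change was 0.76. With 1 library fewer, calls became fewer among the members and among all genes. Of the members, 2 rose without KANSL1-deficient replicate 1, beside 1.21% of all genes tested in that fit, and 2 without replicate 2 of that group, beside 1.04% of all. Likewise 4 rose without control replicate 1, beside 2.68% of all, and 4 without control replicate 2, beside 1.21% of all. Without control replicate 3 it was 7, beside 447 of 16148 genes, and without KANSL1-deficient replicate 3 it was 7, beside 345 of 16235 genes. Ifit1 and Sp100 were the 2 that passed with any library left out. In bulk RNA, a larger share of cells that transcribe a gene and more RNA per cell cannot be told apart.

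**Figure D1:**
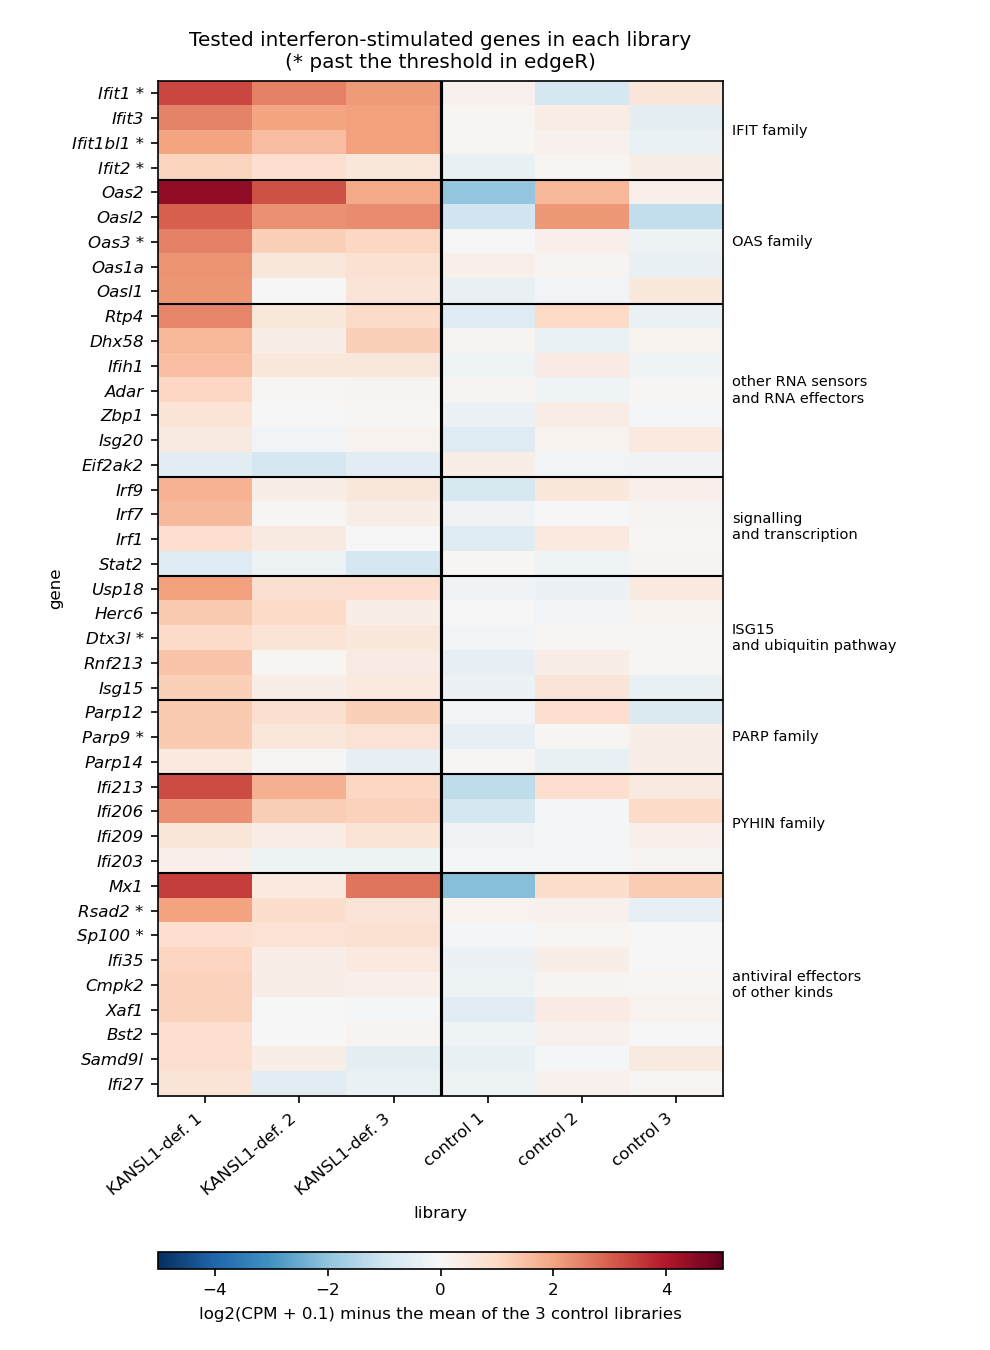
Level of each of the 41 tested members (rows, grouped by role) in each library (columns), as log2(CPM + 0.1) minus the mean of the 3 control libraries, in colour. The column of KANSL1-deficient replicate 1 is the reddest, with a median of 1.29, against 0.45 and 0.57 in replicates 2 and 3, and Stat2 and Eif2ak2 are blue in all 3 KANSL1-deficient libraries.

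The IFIT proteins bind foreign or incompletely capped RNA and block its translation. Their genes lie side by side on chromosome 19 (GRCm39, 34528094 to 34627409), and 3 of the 4 tested rose, beside 3.85% of all tested genes. Ifit1 (ENSMUSG00000034459) was read at 33.8, 18.97 and 14.3 CPM in KANSL1-deficient libraries, against 3.81, 1.76 and 5.05 CPM in control libraries. The groups were far apart, and replicate 1 was the highest library. The log2 fold change was 2.66 ± 0.41 (SE; edgeR, adjusted p = 0.00545), the largest among the 8 that rose. Ifit1bl1 (ENSMUSG00000079339), a mouse paralog of Ifit1, had 4.72, 3.48 and 5.0 CPM in KANSL1-deficient and 1.21, 1.32 and 0.88 CPM in control libraries. Its replicates were close within each group, and its log2 fold change was 1.95 ± 0.43 (adjusted p = 0.0215). It was 1 of the 3 tested genes whose highest KANSL1-deficient library was replicate 3. Ifit2 had 52.1, 42.5 and 35.5 CPM in KANSL1-deficient against 18.2, 25.3 and 29.4 CPM in control libraries, a log2 fold change of 0.83 ± 0.22 (adjusted p = 0.0416).

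Ifit3 and Ifit3b, the copies with the identical promoter stretch shown above, were read rarely. Ifit3 had 49, 35 and 35 counts in KANSL1-deficient and 8, 11 and 5 counts in control libraries. The groups did not overlap, and its log2 fold change of 2.395 ± 0.68 missed the threshold (adjusted p = 0.0538). Ifit3b had 17 counts in KANSL1-deficient replicate 1 and 0 in each of the other 5 libraries, where a count of 0 allows up to 3 counts. That library was also the highest for Ifit3.

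The oligoadenylate synthetase (OAS) family senses double-stranded RNA and makes the second messenger that activates RNase L, and Oasl1 and Oasl2 encode related proteins. Oas3 (ENSMUSG00000032661) had 17.5, 7.01 and 6.30 CPM in KANSL1-deficient libraries, against 3.04, 3.56 and 2.503 CPM in control libraries. It was the 1 gene of the 5 tested in this family that rose, beside 3.85% of all tested genes. Its log2 fold change was 1.76 ± 0.42 (SE; edgeR, adjusted p = 0.0289), and replicate 1 stood far above the other KANSL1-deficient libraries. Oas2 had the largest fitted fold change of all 41, 3.10 ± 0.95, but with 165, 70 and 26 counts in KANSL1-deficient and 0, 25 and 8 in control libraries it did not pass (adjusted p = 0.0707). Oasl1 had 17.2, 3.67 and 5.65 CPM in KANSL1-deficient and 2.75, 3.30 and 5.23 CPM in control libraries, so that replicate 1 stood far above the controls and replicates 2 and 3 near them. Oasl2 had 5.80, 3.58 and 3.75 CPM in KANSL1-deficient and 0.29, 3.25 and 0.22 CPM in control libraries, where control replicate 2 stood near the KANSL1-deficient level. Oas1a was read at most 38 times in any library. The adjusted p values of Oasl1, Oasl2 and Oas1a were 0.182, 0.21 and 0.292.

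Rsad2 encodes viperin, an enzyme that makes a chain-terminating nucleotide, and Cmpk2, its divergent neighbour on chromosome 12, supplies the nucleotide precursor. Rsad2 (ENSMUSG00000020641) had 58.9, 26.4 and 22.6 CPM in KANSL1-deficient libraries, against 16.3, 16.7 and 10.9 CPM in control libraries. It rose by 1.29 ± 0.33 on the log2 scale (SE; edgeR, adjusted p = 0.0394). Cmpk2 had 20.2, 11.4 and 10.9 CPM in KANSL1-deficient and 7.72, 10.1 and 9.71 CPM in control libraries. Both genes were highest in replicate 1, and for both the KANSL1-deficient libraries lay above the controls without overlap, beside 14.6% of all tested genes. The log2 fold change of Cmpk2, 0.63 ± 0.29, did not pass (adjusted p = 0.223).

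Sp100 encodes a constituent of PML nuclear bodies that restricts the transcription of incoming viral DNA. Sp100 (ENSMUSG00000026222) had 495, 456 and 465 CPM in KANSL1-deficient and 255, 291 and 278 CPM in control libraries. It had the smallest p of all members (log2 fold change 0.78 ± 0.11, SE; edgeR, adjusted p = 0.00453) and differed little among the 3 KANSL1-deficient libraries. Its level per length averaged 59.3 FPKM in KANSL1-deficient and 38.3 FPKM in control libraries (counts per length and library total, the authors' values), the highest of the 8. Parp9, an ADP-ribosyltransferase family member, and Dtx3l, the ubiquitin ligase that binds it, share a divergent start region on chromosome 16. Dtx3l had 191, 156 and 141 CPM in KANSL1-deficient and 89.1, 103 and 100.3 CPM in control libraries, and Parp9 had 68.8, 42.2 and 46.7 CPM in KANSL1-deficient and 21.1, 29.5 and 35.5 CPM in control libraries. Both rose, Dtx3l by 0.74 ± 0.15 (adjusted p = 0.0137) and Parp9 by 0.87 ± 0.23 (adjusted p = 0.0465) on the log2 scale. The annotated genes overlap by 682 bases on opposite strands, and since no source used here gives the strand setting of the counting, reads in that stretch cannot be assigned to one of them. Parp14, the next gene on the chromosome, had 40.8, 30.6 and 22 CPM in KANSL1-deficient and 30.6, 22.3 and 36.3 CPM in control libraries (log2 fold change 0.07, adjusted p = 0.92), and Parp12 had a log2 fold change of 0.99 ± 0.40 (adjusted p = 0.165).

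**Figure D2:**
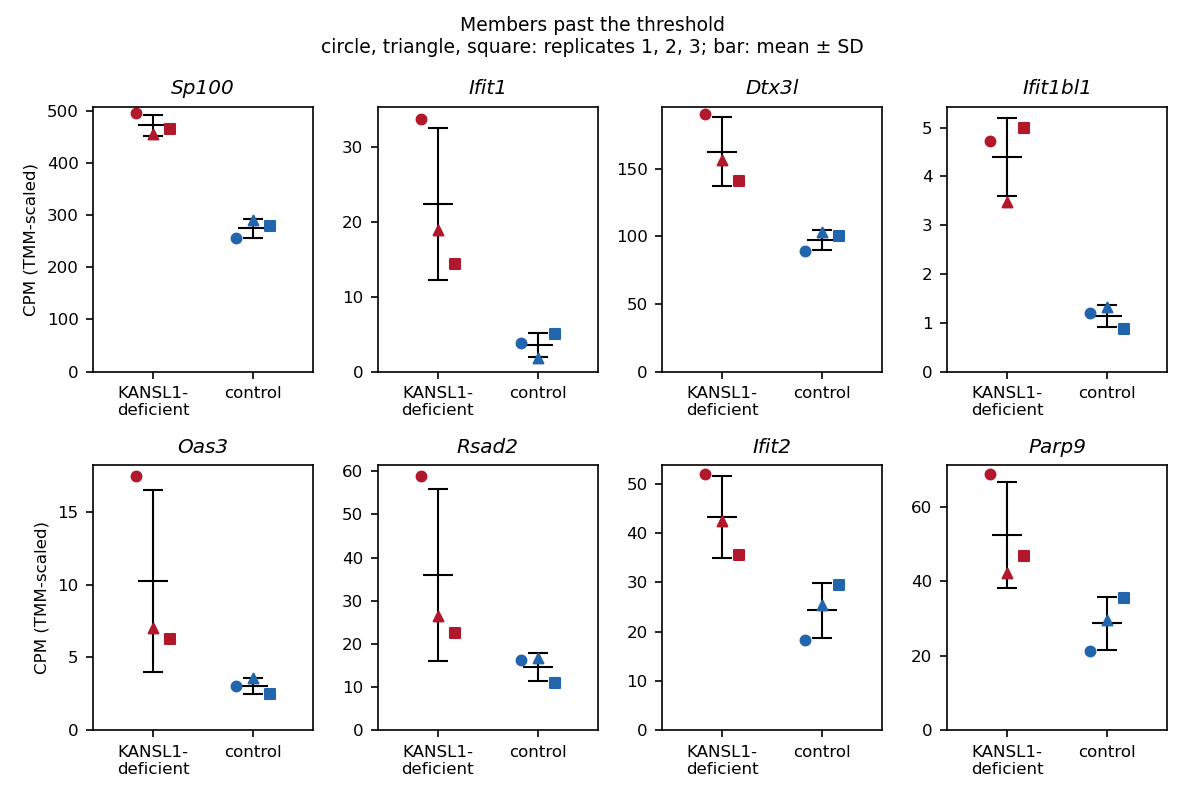
CPM of the 8 members past the threshold in each library, with the mean and SD of each group (n = 3 each). No KANSL1-deficient library lies below a control library in any panel, and the circle of KANSL1-deficient replicate 1 is the highest point for 7 of the 8 genes, the exception being Ifit1bl1.

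None of the 4 signalling and transcription genes passed the threshold with edgeR, beside 6.76% of all tested genes that did. An unadjusted p under 0.05 was seen for 3 of the 4, beside 22.6% of all, and the directions of the 4 differed. Irf9, the DNA-binding subunit of ISGF3, had 327, 118 and 144 CPM in KANSL1-deficient and 56.1, 141 and 115 CPM in control libraries. Apart from KANSL1-deficient replicate 1 and control replicate 1, at the 2 ends, the libraries of both groups lay within the same range (log2 fold change 0.92 ± 0.38, SE; edgeR, adjusted p = 0.178). Stat2 went the other way, with 43.6, 57.1 and 36.7 CPM in KANSL1-deficient and 72.0, 59.2 and 74.8 CPM in control libraries. Its groups did not overlap, and its log2 fold change of -0.58 ± 0.19 had an adjusted p of 0.0789 with edgeR and passed with DESeq2. Irf7, which amplifies the type I response, had 21.8 CPM in KANSL1-deficient replicate 1 and 7.44 and 9.0 CPM in replicates 2 and 3, against 6.32 to 7.91 CPM in control libraries. Irf1, an activator that is induced strongly by interferon gamma, had 303, 229 and 170.2 CPM in KANSL1-deficient and 111, 235 and 179.9 CPM in control libraries. Neither Irf7 nor Irf1 passed (adjusted p = 0.21 and 0.366).

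**Figure D3:**
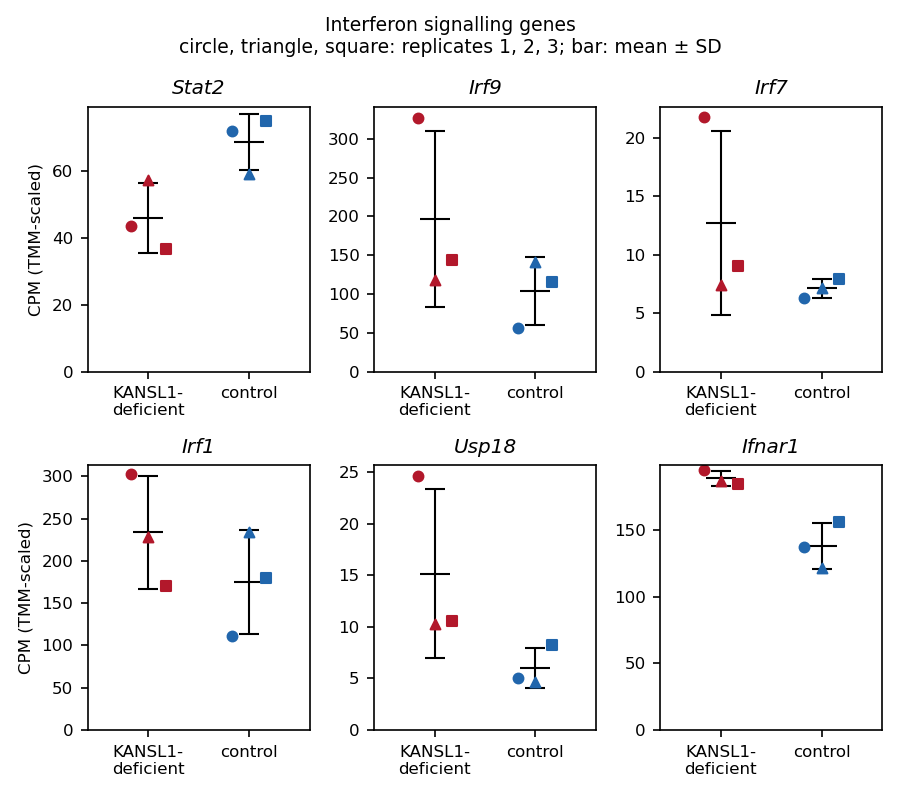
CPM of Stat2, Irf9, Irf7, Irf1, the feedback regulator Usp18 and the receptor gene Ifnar1 in each library, with the mean and SD of each group (n = 3 each). Replicate 1 is the highest KANSL1-deficient library for each gene but Stat2, whose KANSL1-deficient libraries, at 36.7 to 57.1 CPM, lie below the control libraries.

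Isg15 is a ubiquitin-like protein that is attached to other proteins, Herc6 is its main ligase in the mouse, and Usp18 removes it and also blocks signalling at the type I receptor. Usp18 had 24.6, 10.3 and 10.5 CPM in KANSL1-deficient libraries, against 5.07, 4.66 and 8.21 CPM in control libraries. Its groups did not overlap and its log2 fold change of 1.34 ± 0.38 lay just outside the threshold (SE; edgeR, adjusted p = 0.0538). Herc6 had 31.0, 24.3 and 15.7 CPM in KANSL1-deficient and 12.5, 11.3 and 14.1 CPM in control libraries, likewise without overlap (0.91 ± 0.26, adjusted p = 0.0569). Isg15 itself was read rarely, at 2.401 to 4.47 CPM in KANSL1-deficient and 1.45 to 3.08 CPM in control libraries, which overlapped (adjusted p = 0.465). Rnf213, a large ubiquitin ligase, had 63.0 CPM in KANSL1-deficient replicate 1 and 24.9 and 30.8 CPM in replicates 2 and 3, against 17.6 to 29.8 CPM in control libraries (adjusted p = 0.196).

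None of 7 tested genes for other RNA sensors and RNA-directed effectors passed with edgeR, beside 6.76% of all tested genes that did. An unadjusted p under 0.05 was seen for 4 of the 7, beside 22.6% of all. Ifih1 encodes MDA5, a sensor of long double-stranded RNA, and had 42.0, 21.1 and 21.9 CPM in KANSL1-deficient and 12.6, 20.0 and 12.9 CPM in control libraries (log2 fold change 0.90 ± 0.29, SE; edgeR, adjusted p = 0.087). Dhx58, which encodes its cofactor LGP2, had 11.4, 4.47 and 8.30 CPM in KANSL1-deficient and 3.91, 2.81 and 4.04 CPM in control libraries (1.17 ± 0.38, adjusted p = 0.0886). For both the KANSL1-deficient libraries lay above the controls without overlap, beside 14.6% of all tested genes. DESeq2 called both higher, beside 8.6% of all genes with an adjusted p there. Rtp4, a receptor transporter family gene, had 83.8, 22.9 and 30.2 CPM in KANSL1-deficient and 9.80, 30.6 and 12.1 CPM in control libraries (adjusted p = 0.11). Eif2ak2 encodes PKR, the kinase that stops translation on double-stranded RNA. It had 9.14, 7.48 and 9.15 CPM in KANSL1-deficient and 16.9, 12.1 and 11.7 CPM in control libraries (-0.66 ± 0.26, adjusted p = 0.145). With Stat2 it was 1 of 2 members that were lower in every KANSL1-deficient library, beside 14% of all tested genes. Adar, the RNA-editing enzyme that keeps cellular double-stranded RNA from being sensed, had 75.1 CPM in KANSL1-deficient replicate 1 and 39.1 and 40.5 CPM in replicates 2 and 3, against 31.7 to 40.6 CPM in control libraries. Zbp1, a sensor of Z-form nucleic acid, and Isg20, an exonuclease, had log2 fold changes of 0.24 and 0.11 with overlapping groups.

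The PYHIN genes, whose proteins bind DNA or act in the nucleus, occupy chromosome 1 from 173296051 to 173770238 (GRCm39). Of the 6 members there, 4 were tested and none passed with edgeR, beside 6.76% of all tested genes that did. An unadjusted p under 0.05 was seen for 3 of the 4, beside 22.6% of all. Ifi206 had 30.1, 14.7 and 13.9 CPM in KANSL1-deficient and 3.28, 5.89 and 11.9 CPM in control libraries (log2 fold change 1.48 ± 0.44, SE; edgeR, adjusted p = 0.0618). Ifi213, whose promoter stretch is nearly that of Ifi206, had 15.6, 5.55 and 3.25 CPM in KANSL1-deficient and 0.58, 2.86 and 2.15 CPM in control libraries (2.12 ± 0.63, adjusted p = 0.0644). Ifi209 had 74.3, 62.9 and 76.7 CPM in KANSL1-deficient and 42.8, 45.5 and 58.1 CPM in control libraries (0.55 ± 0.17, adjusted p = 0.0674). All 3 had separate groups with the KANSL1-deficient libraries above, beside 14.6% of all tested genes. DESeq2 called all 3 higher, beside 8.6% of all genes with an adjusted p there. Ifi203, in the same cluster and with an ISRE core of its own, had 33.6, 23.5 and 23.4 CPM in KANSL1-deficient and 26.6, 26.5 and 30.6 CPM in control libraries (-0.06 ± 0.20, adjusted p = 0.915). Ifi204 was read 6, 0 and 10 times in KANSL1-deficient and 1, 0 and 0 times in control libraries, and Ifi214 2, 8 and 8 times in KANSL1-deficient and 0, 2 and 1 times in control libraries.

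The remaining antiviral effectors differed in how far they depended on replicate 1. Ifi35 had 75.5, 44.6 and 49.6 CPM in KANSL1-deficient and 28.9, 42.8 and 35.8 CPM in control libraries, without overlap (log2 fold change 0.66 ± 0.22, SE; edgeR, adjusted p = 0.0959). Mx1, a dynamin-like GTPase that restricts influenza virus in mice and was kept with the effectors, had 96, 11 and 55 counts in KANSL1-deficient and 0, 16 and 22 counts in control libraries (adjusted p = 0.215). For the next 4 genes, replicates 2 and 3 lay within or below the range of the control libraries. Bst2, which tethers budding virus to the cell surface, had 109, 61.0 and 66.6 CPM in KANSL1-deficient and 52.8, 70.3 and 59.7 CPM in control libraries. Ifi27 had 168, 72.5 and 83.3 CPM in KANSL1-deficient and 86.5, 119.9 and 109 CPM in control libraries, so replicates 2 and 3 were the lowest of the 6 libraries. Xaf1, a pro-apoptotic factor, had 33.3, 14.7 and 14.3 CPM in KANSL1-deficient and 10.1, 20.1 and 16.95 CPM in control libraries. Samd9l, an inhibitor of translation, had 127, 85.4 and 51.6 CPM in KANSL1-deficient and 54.5, 65.6 and 96.8 CPM in control libraries. Their adjusted p values lay between 0.342 and 0.959. Ifi44 was read 22 times in KANSL1-deficient replicate 1, 7 times in control replicate 2 and 0 times elsewhere.

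Among all 45 genes, the members with the highest mean levels per length in control libraries were Ifi27 (69.6 FPKM in KANSL1-deficient and 75.4 FPKM in control libraries), Bst2 (82.7 FPKM in KANSL1-deficient and 71.0 FPKM in control libraries) and Irf1 (55.7 FPKM in KANSL1-deficient and 46.3 FPKM in control libraries), none of which passed. Ifit1 averaged 7.95 FPKM in KANSL1-deficient and 1.41 FPKM in control libraries, and Oas3 1.37 FPKM in KANSL1-deficient and 0.45 FPKM in control libraries. An ISRE core was found in 4 of 7 members that rose and have a promoter window, in 10 of 25 that were tested and did not pass, and in 2 of 3 that were not tested. A GAS core was found in 1 of 7, 7 of 25 and 0 of 3. Sp100, Dtx3l and Ifit2 rose with no match to the ISRE core in their windows.

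The 3 KANSL1-deficient libraries differed among themselves. Replicate 1 was the highest of its group for 37 of the 41 tested members (90.2%), beside 33.9% of all tested genes, and the highest of all 6 libraries for 36 (87.8%), beside 17.4% of all. The other 4 were Stat2, highest in replicate 2, and Ifit1bl1, Eif2ak2 and Ifi209, highest in replicate 3. Relative to the mean of the control libraries, the median log2 level of the 41 was 1.29, 0.45 and 0.57 in KANSL1-deficient replicates 1, 2 and 3 and -0.23, 0.16 and 0.10 in control replicates 1, 2 and 3, while over all tested genes it lay between 0.01 and 0.02 in every library. Replicate 1 was above all 3 control libraries for 38 of the 41, replicate 2 for 21 and replicate 3 for 27, beside 28.3% to 29.9% of all tested genes in these libraries. All 3 were above all 3 controls for 21 members (51.2%), beside 14.6% of all tested genes, and below them for 2 (4.88%), beside 14% of all. The 21 include Ifit3, Oas1a, Oas2 and Oasl2, whose separation was favoured by their inclusion; among the 36 members that passed the filter through their control libraries it was 17 (47.2%), beside 15.1% of all genes that passed so.

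Without KANSL1-deficient replicate 1, the log2 fold change of Ifit1 was 2.23 ± 0.41 (edgeR, adjusted p = 0.0275) and that of Sp100 0.75 ± 0.13 (adjusted p = 0.0245), and these were the members that rose, beside 1.21% of all genes tested in that fit that were higher; none fell, beside 0.53% of all. Ifit1bl1 and Ifit2 kept log2 fold changes of 1.898 and 0.68 and Dtx3l of 0.61, with adjusted p values of 0.0831, 0.173 and 0.0738. Rsad2 had 0.74 and Oas3 1.13 without that library, and neither passed (adjusted p = 0.172 and 0.16). Irf7, Rnf213, Oasl1, Cmpk2 and Irf9 had 0.21, 0.23, 0.31, 0.29 and 0.34. The median of the 41 was 0.52, and 32 of them were positive.

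**Figure D4:**
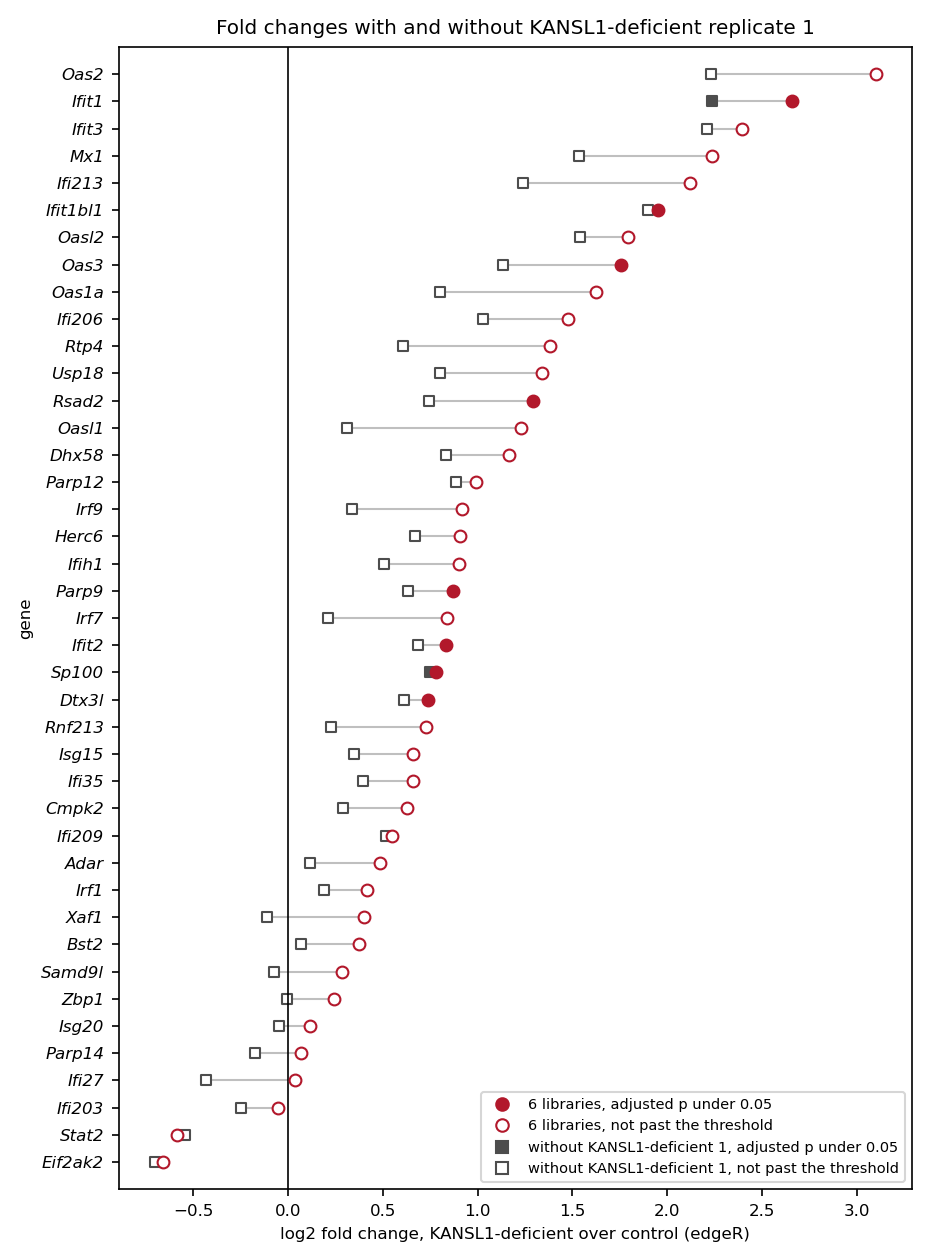
Log2 fold change of the 41 tested members, KANSL1-deficient over control, fitted with 6 libraries (circles) and without KANSL1-deficient replicate 1 (squares); filled symbols passed an adjusted p of 0.05 in edgeR. Ifit1 and Sp100 are filled in both fits, while Oasl1 moves to 0.31, Rtp4 to 0.60 and Oas1a to 0.80 without that library.

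Markers of other cell types that a DP sort could hold were read in the same libraries. For macrophages, 8 of 10 listed genes were read, with summed levels of 16.4, 8.76 and 9.25 CPM in KANSL1-deficient replicates 1, 2 and 3 and 10.6 to 16.4 CPM in control libraries, and Adgre1 had at most 0.19 CPM in any library. Of the same list, Lyz2 had 2.11, 1.88 and 2.95 CPM in KANSL1-deficient and 0, 1.23 and 0.31 CPM in control libraries, without overlap (adjusted p = 0.208 with edgeR), Mertk had 12 counts in KANSL1-deficient replicate 1 and 0 elsewhere, and Cd68 had 201, 119 and 81 counts in KANSL1-deficient and 151, 269 and 267 counts in control libraries. For dendritic cells without Bst2, 8 of 9 genes summed to 65.1 to 83.4 CPM in KANSL1-deficient and 72.0 to 95.8 CPM in control libraries. Most of the dendritic sum was Tcf4 (75.8, 58.8 and 79.1 CPM in KANSL1-deficient against 87.7, 76.2 and 63.0 CPM in control libraries). Zbtb46 had 0.39, 0.94 and 1.15 CPM in KANSL1-deficient and 3.57, 2.29 and 2.46 CPM in control libraries, without overlap (adjusted p = 0.0874 with edgeR). Spib and Flt3 overlapped between the groups. Siglech, which marks the plasmacytoid type, had 2 counts in KANSL1-deficient replicate 1 and 0 elsewhere. For NK, NKT and gamma-delta T cells, 8 of 11 genes summed to 100.7, 58.5 and 71.5 CPM in KANSL1-deficient replicates 1, 2 and 3 and 41.7 to 47.4 CPM in control libraries. Most of the sum in KANSL1-deficient libraries was Gzma, a granzyme gene that rose (72.0, 32.3 and 39.2 CPM in KANSL1-deficient against 16.1, 22.6 and 26.5 CPM in control libraries, adjusted p = 0.0376 with edgeR). Trdc had 25.9, 25.7 and 30.7 CPM in KANSL1-deficient and 25.2, 23.6 and 18.8 CPM in control libraries, without overlap. Tbx21 had 5, 11 and 23 counts in KANSL1-deficient and 0, 0 and 5 counts in control libraries. Ncr1 and Nkg7 had 0 counts in all KANSL1-deficient libraries and at most 5 and 2 counts in any control library. Zbtb16 and Eomes had at most 5 counts in any library. Klrb1c had 46, 0 and 3 counts in KANSL1-deficient and 7, 15 and 37 counts in control libraries, so, like Gzma, it was highest in KANSL1-deficient replicate 1. For B cells, 7 of 7 genes summed to 493 to 561 CPM in KANSL1-deficient and 291 to 406 CPM in control libraries. Most of the B cell sum was Ighm (462, 515 and 437 CPM in KANSL1-deficient against 248, 245 and 353 CPM in control libraries), and Cd79b overlapped between the groups. For CD4 single-positive and regulatory T cells, 6 of 6 genes summed to 244 to 292 CPM in KANSL1-deficient and 162 to 177 CPM in control libraries. Most of the CD4 sum was Ikzf2 (211, 198 and 195 CPM in KANSL1-deficient against 137, 114 and 113 CPM in control libraries), and Ctla4 overlapped between the groups. Foxp3 had at most 2 counts and Zbtb7b at most 1 count in any library. Cd40lg had 12, 5 and 3 counts in KANSL1-deficient and 0 in control libraries, and Tnfrsf4 had a log2 fold change of -0.41. For double-negative thymocytes, 7 of 7 genes summed to 131 to 153 CPM in KANSL1-deficient and 87.6 to 114 CPM in control libraries. Most of this sum was Notch1 (70.0, 62.8 and 63.1 CPM in KANSL1-deficient against 52.6, 34.9 and 50.3 CPM in control libraries) and Cd44, which overlapped between the groups. Il7r had 0, 0 and 1 counts in KANSL1-deficient and 10, 17 and 0 counts in control libraries, and Hes1 overlapped. The sum for CD8 single-positive cells, mostly Cd8b1, overlapped between the groups, as did those for thymic epithelium, erythroid cells and neutrophils. Within the CD8 list, Runx3 had 17.3, 14.8 and 15.9 CPM in KANSL1-deficient and 26.9, 23.3 and 27.2 CPM in control libraries. Itgae, with a log2 fold change of -2.27, was likewise lower without overlap, and neither passed (adjusted p = 0.0522 and 0.09 with edgeR). The sums for NK, B, CD4 and double-negative cells did not overlap between the groups. Nor did the sum of the DP markers, at 16720 to 18530 CPM in KANSL1-deficient and 14060 to 14650 CPM in control libraries. The NK, CD4 and double-negative sums were highest in KANSL1-deficient replicate 1, as were most members. The part of such cells in the levels of the interferon-stimulated genes was not tested.

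Upstream of these genes, transcripts of the interferons were nearly absent. Of 11 listed interferon genes, 4 were read, with 48 counts in the KANSL1-deficient and 80 in the control libraries together, most of them from Ifnk. Ifng was read 0 times in each KANSL1-deficient library, where a count of 0 allows up to 3, and 0, 7 and 6 times in control libraries. Among the receptor and kinase genes, Ifngr1, the ligand-binding chain of the interferon gamma receptor, rose (log2 fold change 0.54 ± 0.12, SE; edgeR, adjusted p = 0.0234). Ifnar1 had 195, 187 and 185 CPM in KANSL1-deficient and 138, 122 and 156 CPM in control libraries (0.45 ± 0.13, adjusted p = 0.0578). Of 6 negative regulators outside the members, 3 rose, beside 3.85% of all tested genes. They were the cytokine signal inhibitors Socs1 (0.68 ± 0.15, adjusted p = 0.0229) and Socs3 (0.85 ± 0.19, adjusted p = 0.0247), and Ptpn6, the phosphatase SHP-1 (0.59 ± 0.16, adjusted p = 0.0493). Socs1 had 428, 472 and 498 CPM in KANSL1-deficient and 226, 343 and 302 CPM in control libraries, so replicate 1 was the lowest of its group for this gene. Of 15 tested interferon-induced GTPases, 8 rose and none fell, beside 3.85% and 2.91% of all tested genes. The median log2 fold change of the 15 was 0.87, beside -0.02 over all tested genes. Iigp1 and Tgtp1, among the 8, passed the filter on low counts only through the KANSL1-deficient libraries. Gbp6 had 51.7, 28.7 and 21.6 CPM in KANSL1-deficient and 9.41, 11.7 and 12.7 CPM in control libraries, with replicate 1 again the highest.

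The authors' deposited table gave an adjusted p for 40 of the 45 genes, of which 18 were higher and 1, Stat2, was lower with an adjusted p under 0.05, beside 7.92% and 6.99% of all genes with an adjusted p in the authors' deposited table. The 8 genes that rose in the edgeR test were all among the 18. The authors' deposited table marked 10 members as significant, none of them lower. The share of all genes so marked was not counted, so this number has no background beside it. Stat2, Ifit2, Sp100, Dtx3l, Parp9, Ifih1, Ifi35, Ifi209 and Herc6 were not so marked, although their adjusted p there was under 0.05. The marked members had log2 fold changes of 1.17 (Dhx58) or more, and these unmarked ones of 0.905 (Herc6) or less in size. The authors' deposited table listed Ifit1 with a log2 fold change of 2.66 and an adjusted p of 1.72e-09, and Usp18 with 1.34 and 0.00649.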

How the data were processed

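Polyadenylated RNA of sorted DP thymocytes was sequenced in 6 libraries, 3 a group. The submitters' processing notes name STAR, featureCounts, DESeq2 and GRCm39, without versions or a strand setting. The authors deposited whole-number read counts per gene. A second deposited table gives FPKM, which equal the counts divided by a fixed gene length and the library total. The authors' comparison, per the file headers, lists for each gene a fold (ratio), a log2 fold, a p-value, an adjusted p-value and a mean signal.

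Counts were tested in R 4.3.3 with edgeR 4.0.16 (quasi-likelihood), TMM scaling, filterByExpr (a minimum count of 10 and a total of 15), robust shrinkage of the dispersion, no replicate block and Benjamini-Hochberg adjustment at 0.05 over 15353 genes. The SE is the log2 fold change divided by the square root of F. Alternatives used DESeq2 1.42.0, limma 3.58.1 (voom, and log2 of FPKM plus 1), other scalings and filters, a replicate block and each library left out. The test was tested on simulated data. The labels number the mice and call the controls littermates, but do not say which mice share a litter. The p-values set the difference between the groups against the spread between the 3 libraries of each group. The members, lists and tests were chosen with earlier results of these data known; every member could be named, and outside them Kansl1 and genes of the fixed lists. Promoters are from RefSeq (GRCm38.p6) and gene coordinates from the deposited table (GRCm39). Some genes of the lists, and a marker list that rests on one, are not reported here.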

Additional observations from a re-analysis of the deposited data

How the results depend on the processing

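Ifit1 and Sp100 passed the threshold in all 14 alternatives. In the main fit 8 of 41 members rose, beside 591 of 15353 tested genes. Of the 41 members, 5 rose with library totals, beside 367 of 15353 genes, and 5 with limma on log2(FPKM + 1), beside 300 of 15353. With median-of-ratios scaling 8 rose, beside 582 of 15353, and with limma-voom 9, beside 714 of 15353. DESeq2 called 17 higher, beside 1090 of 12674 genes with an adjusted p. With no filter on low counts 21 of 45 members rose, beside 884 of 29626 genes. With a filter of 5 CPM in 3 libraries it was 13 of 31, beside 806 of 9834. With 1 library left out 2 to 7 rose, beside 169 to 447 of all genes tested in those fits. The number that fell was 1, Stat2, with library totals, no filter, the 5 CPM filter and DESeq2, beside 959, 845, 740 and 950 of all genes. The number of all genes past the threshold, 1038, was 1729 with no filter, 2040 with DESeq2 and 283 to 811 with 1 library left out. With library totals, which moved the median of all genes to -0.17, 27.7% of the called genes were higher, against 56.9% with TMM (31.5% with log2 FPKM). The median of the members stayed between 0.47 and 0.98 in all alternatives.

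Of the 41 tested members, 7 changed direction under some alternative, and none of the 7 had passed the threshold. Ifi27 (0.04) had -0.12 with library totals, -0.057 with limma-voom, -0.20 with log2 FPKM, -0.060 with the replicate block, and -0.43 to 0.26 with 1 library left out (-0.43 without KANSL1-deficient replicate 1, -0.10 without control replicate 1). Isg20 (0.11) had -0.035 with library totals and -0.16 (without control replicate 1) to 0.37 with 1 library left out. Parp14 (0.07) had -0.093 with library totals, -0.075 with log2 FPKM and -0.17 to 0.27 with 1 library left out. With 1 library left out, Xaf1 ranged from -0.11 to 0.61, Zbp1 from -0.0059 to 0.42, Samd9l from -0.075 to 0.56 and Ifi203 from -0.25 to 0.038, the first 3 being negative without KANSL1-deficient replicate 1. The cause was not tested.

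Equal replicate numbers did not pair the libraries: the correlations of same-numbered deviations from the group means were -0.07, -0.03 and -0.14. No library correlated best with the library of its own number in the other group. With the replicate block, 3 of 41 members rose (Ifit1, Rsad2 and Sp100), beside 242 of 15353 tested genes, and 406 of all genes passed in either direction. The depth limits members read fewer than about 10 times a library, such as Ifi204, Ifi214 and Ifit3b.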

Other observations

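Sensors of nucleic acid outside the members moved in different directions. Of 10 tested, Tlr7, an endosomal sensor of single-stranded RNA, rose, and Myd88, the adaptor it signals through, fell (edgeR, adjusted over all tested genes). Of all tested genes 3.85% rose and 2.91% fell. Tlr7 was read 53, 17 and 36 times in KANSL1-deficient and 0, 1 and 4 times in control libraries (adjusted p = 0.0268); it passed the filter on low counts only through the KANSL1-deficient libraries, so that a higher level in those was built into its inclusion. Myd88 had 19.9, 32.8 and 25.5 CPM in KANSL1-deficient and 45.4, 48.5 and 45.5 CPM in control libraries, a log2 fold change of -0.83 ± 0.20 (SE; edgeR, adjusted p = 0.029), and KANSL1-deficient replicate 1, the highest library for most interferon-stimulated genes, was the lowest. Rigi, the sensor of RNA ends, had 61.1, 39.4 and 41.0 CPM in KANSL1-deficient and 29.1, 27.3 and 34.1 CPM in control libraries and did not pass (adjusted p = 0.0764), nor did the DNA sensor Cgas (53, 29 and 60 counts in KANSL1-deficient against 19, 7 and 28 counts in control libraries, adjusted p = 0.195) or Ticam1, the adaptor of Tlr3 (6.09, 6.59 and 9.15 CPM in KANSL1-deficient against 12.4, 9.98 and 11.9 CPM in control libraries, adjusted p = 0.179).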
